A study of Mus musculus with 8 samples.

Results

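The 9 monocyte lineage genes followed here are Irf8, Klf4, Ccr2, Cx3cr1, Cd14, Ly86, Ms4a6c, Mpeg1 and F13a1, chosen by symbol from 19505 genes with a named row on the array, and each of them had a single row. RNA levels were read on microarrays of mouse leukaemia stem cells, namely granulocyte-macrophage progenitors (GMPs) carrying GFP that were sorted out of the marrow of transplanted animals. The comparison had 3 arrays of Pik3ca-/- cells (KO) and 5 arrays of wild-type cells (WT). Both groups carry MLL-AF9, a fusion oncogene that makes myeloid progenitors self-renew, and the product of Pik3ca is p110-alpha, a catalytic subunit of phosphoinositide 3-kinase. The labels give neither the age of the animals nor the way Pik3ca was deleted, nor whether replicate arrays stand for separate mice, and p-values therefore speak only of the spread between these samples, which may be technical. Values are the deposited log2 signals of whole sorted populations, in which fewer cells of a type and less RNA per cell cannot be told apart.

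Monocytes arise from GMPs through progenitors in which the transcription factor IRF8 is switched on and, together with PU.1 and KLF4, opens the monocyte programme while restraining the neutrophil programme. The cells then gain chemokine receptors that govern their exit from marrow and their life in vessels, pattern receptors such as CD14, and phagocyte effector proteins. MLL-AF9 leukaemias lie at the myelomonocytic stage of this path, and in mice loss of IRF8 shifts progenitors towards granulocytes.

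The promoters of Ms4a6c and Irf8 are shown because all KO arrays lay below all WT arrays for those genes alone among the 9, and that of F13a1 because it varied most between arrays. Windows run 250 bases upstream to 50 bases downstream of the RefSeq start in GRCm38.p6, written 5′ to 3′ on the gene's strand. Ms4a6c is at chr19:11469118-11469417 on the plus strand, Irf8 at chr8:120736108-120736407 on the plus strand, and F13a1 at chr13:37049164-37049463 on the minus strand. For Irf8 and for F13a1 the window shown is the first of the 2 listed for the gene. Capitals mark every match to a motif that was searched.
Ms4a6c: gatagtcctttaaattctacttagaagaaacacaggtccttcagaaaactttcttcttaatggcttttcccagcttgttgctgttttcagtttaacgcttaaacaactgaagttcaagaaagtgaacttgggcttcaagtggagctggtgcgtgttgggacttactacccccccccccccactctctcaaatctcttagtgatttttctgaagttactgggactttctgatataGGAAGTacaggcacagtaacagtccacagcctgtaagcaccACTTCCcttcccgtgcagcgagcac
Irf8: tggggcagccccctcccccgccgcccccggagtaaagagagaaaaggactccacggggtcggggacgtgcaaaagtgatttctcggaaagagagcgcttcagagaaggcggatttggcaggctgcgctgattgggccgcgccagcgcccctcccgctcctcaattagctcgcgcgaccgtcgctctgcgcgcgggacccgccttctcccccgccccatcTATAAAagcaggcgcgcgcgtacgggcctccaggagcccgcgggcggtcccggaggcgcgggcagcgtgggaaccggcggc
F13a1: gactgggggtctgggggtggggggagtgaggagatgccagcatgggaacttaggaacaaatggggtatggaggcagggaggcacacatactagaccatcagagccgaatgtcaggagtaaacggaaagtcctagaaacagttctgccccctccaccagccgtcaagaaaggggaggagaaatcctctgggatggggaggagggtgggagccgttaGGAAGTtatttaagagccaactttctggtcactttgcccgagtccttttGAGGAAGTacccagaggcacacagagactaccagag
The motifs, searched on both strands, were the PU.1-type core GAGGAA, the ETS core GGAAGT, the IRF half-site GTGAAA, the C/EBP motif TTGCNNAA and the TATA box TATAAA. Matches of different motifs may overlap, as the GAGGAA and GGAAGT matches in the F13a1 window do. Ms4a6c held 2 ETS cores, which begin at positions -16 and 26 from the start, on opposite strands. In the windows shown, Irf8 held a TATA box at -31 and no other match. F13a1 held GGAAGT at -35 and 17 and GAGGAA at 15. The second Irf8 window held no match, and the second F13a1 window held GAGGAA at -66 and 18. Of the other members with a window, Ly86 held 3 IRF half-sites at -206, -95 and -2, and Mpeg1 held 1 at 16. Over 32851 promoter windows of the same length, 23.8% held GGAAGT at least once, 28.3% GAGGAA, 12.9% GTGAAA and 13.6% TATAAA. Windows with a match are therefore common. How often a window holds 2 or 3 matches of a motif was not counted. The C/EBP motif was in 10.8% of windows and in none of the 10 windows that the table held for 8 members. Cd14 was named only.

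Pik3ca, the targeted gene, was 8.73, 9.31 and 9.40 in KO arrays 1 to 3, against 9.48, 9.57, 8.41, 9.51 and 9.58 in WT arrays 1 to 5. Over all 8 arrays its difference, -0.16, did not exceed the spread between arrays (exact permutation p of 0.661, two-sided, from 56 splits). Without WT array 3 it was -0.39 and every KO array lay below every WT array, with an exact permutation p of 0.0286, the smallest that 35 splits can give, and an adjusted p of 0.989 in limma, and without KO array 1 it was 0.04. The row may lie outside the deleted part, so neither value checks the labels. The sorted cells carried progenitor transcripts, with Kit at 15.75 to 16.12 in KO and 15.95 to 16.40 in WT, Fcgr3 at 14.83 to 15.02 in KO and 14.56 to 14.91 in WT, and Mpo at 17.10 to 17.35 in KO and 17.05 to 17.49 in WT. Cd34 was lower, at 5.63 to 7.81 in KO and 7.24 to 10.94 in WT. Neutrophil transcripts were high too. Averaged over their rows, secondary granule and neutrophil genes were at 13.06 to 14.24 in KO and 13.46 to 14.10 in WT. Primary granule and GMP genes averaged 14.27 to 14.52 in KO and 14.26 to 14.60 in WT. WT array 3 stood apart from all others, with a mean correlation across genes of 0.921 against 0.968 to 0.972 for the other 7. WT array 1 carried platelet transcripts: the 8 megakaryocyte and platelet genes with a row averaged 6.18 to 6.38 in KO arrays, and in WT arrays 9.84 on array 1 and 5.90 to 6.96 on the others. Values with these or other arrays left out are given beside many of the results.

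No member passed the test between KO and WT. KO was compared with WT by limma over 9920 genes that lay above the median of all rows on at least 3 arrays, with two-sided p-values adjusted by the Benjamini-Hochberg method, and 0 genes, or 0.0%, were called at an adjusted p under 0.05. The smallest adjusted p over the table was 0.998. Of the 9 members, 8 entered the test and Klf4 was too dim. Unadjusted p was under 0.05 in limma for Ms4a6c and Irf8, both lower in KO, and for 1.37% of all tested genes in that direction. All KO arrays lay below all WT arrays for the same pair of genes and for 1.51% of tested genes. Without WT array 3 this still held for that pair, and for 2.93% of tested genes, and without WT array 1 for the pair and 2.22%. Of the 8 tested members 6 had a difference below 0, against 44.0% of all tested genes, with a median of -0.33 against 0.04. Below 0 were 7 of them without WT array 3, where 49.9% of tested genes were, 5 without WT array 1, where 43.5% were, and 4 without KO array 1, where 43.2% were. With 1 array left out at a time their median was lowest without KO array 2, at -0.59, and highest without WT array 1, at -0.16, and it was -0.51 without WT array 3 and -0.20 without KO array 1. Over all 9 members the median was -0.17, and 0.02 without KO array 1. These counts describe a list chosen with earlier results of these data known.

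Irf8 encodes interferon regulatory factor 8, which directs progenitors to the monocyte and dendritic cell lineages. It was 7.23, 8.71 and 8.58 in KO arrays 1 to 3, against 9.34, 8.91, 8.90, 9.43 and 9.17 in WT arrays 1 to 5. Every KO array was below every WT array, by at least 0.19, and KO array 1 was far below the rest. The difference was -0.97 with a standard error of 0.35 and a 95% interval of -1.76 to -0.19 (limma, unadjusted p 0.0208, adjusted p 0.998), which is 0.509 of the WT level if the values are log2. The exact permutation p of 0.0179 was the smallest that 56 splits can give. Leaving out KO array 1 brought the difference to -0.50, and it was -1.04 without WT array 3 and -0.93 without WT array 1. Spread differed between the groups, since KO averaged 8.18 ± 0.82 (SD, n = 3) and WT averaged 9.15 ± 0.24 (SD, n = 5).

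Klf4 encodes a zinc finger factor that acts downstream of IRF8 and PU.1 in monocyte differentiation. Its row read 3.88, 4.18 and 3.52 in KO arrays and 4.0, 3.79, 3.79, 3.63 and 3.72 in WT arrays. All 8 values were below the median row of their array, and 12.7% to 34.0% of the 5222 negative control rows lay below it, so no expression of Klf4 was detectable by these measures. The difference was 0.07, and the exact permutation p was 0.714.

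Ms4a6c belongs to the MS4A family of membrane proteins and is expressed in monocytes and macrophages of mice. It was 7.90, 8.20 and 7.76 in KO arrays 1 to 3, against 9.39, 8.69, 9.64, 9.16 and 8.58 in WT arrays 1 to 5. The KO arrays lay close together and below all WT arrays, with a gap of 0.38 between the groups. KO averaged 7.96 ± 0.23 (SD, n = 3) and WT 9.09 ± 0.45 (SD, n = 5), a difference of -1.14 with a standard error of 0.29 and a 95% interval of -1.79 to -0.49 (limma, unadjusted p 0.00328, adjusted p 0.998). That is 0.455 of the WT level on a log2 reading. Its unadjusted p was at rank 12 of the 9920 tested genes. The exact permutation p was 0.0357 with all arrays, and 0.0286 both without WT array 3 and without WT array 1, the smallest that 35 splits can give. The adjusted p without WT array 3 was 0.986 in limma. Leaving out any single array kept the difference between -1.27 and -1.0, the narrowest such range relative to its size among the members.

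The other MS4A genes lie in the same gene cluster in the mouse, and several resemble Ms4a6c in sequence, so probes could in principle share signal, which was not tested. Of 14 listed, 13 had a row and 5 were tested, with 0 passing in either direction, 1 difference above 0 and 4 below, and a median of -0.34, or -0.13 if KO array 1 was left out. Of all 13 rows, dim ones included, 7 had a difference below 0. Ms4a6b, a close relative of Ms4a6c, was 6.33, 6.94 and 7.07 in KO arrays and 7.89, 6.60, 7.45, 7.86 and 7.43 in WT arrays. Its groups overlapped through WT array 2, and the difference was -0.66 with an exact permutation p of 0.0893. Ms4a4c differed by -0.55 and ran from 6.11 to 8.49 in KO and from 6.03 to 10.14 in WT, and it differed by 0.03 without WT array 3 and by -1.17 without KO array 3. Ms4a4d differed by -0.34, Ms4a2, a subunit of the IgE receptor of mast cells, by -0.12, and Ms4a3, a gene of granulocyte-macrophage progenitors, by 0.08. Ms4a2 was at 0.27 without WT array 1 and -0.44 without WT array 3, and Ms4a3 at -0.01 without WT array 3 and 0.15 without KO array 2. Ms4a6d, also close to Ms4a6c, was dim, at 4.96, 5.54 and 4.18 in KO and 6.12, 4.53, 5.44, 4.69 and 4.86 in WT. Ms4a7, a macrophage gene, ran the other way, at 5.33, 5.86 and 5.25 in KO against 4.54, 5.05, 5.04, 4.78 and 4.70 in WT. Those groups did not overlap either, with a difference of 0.66 and an exact permutation p of 0.0179, but the row was above the array median on 1 array only and was not in the limma test. The remaining dim rows, Ms4a1, Ms4a4b, Ms4a5, Ms4a8a, Ms4a10 and Ms4a15, were at 2.95 to 5.14 on all arrays.

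**Figure D1:**
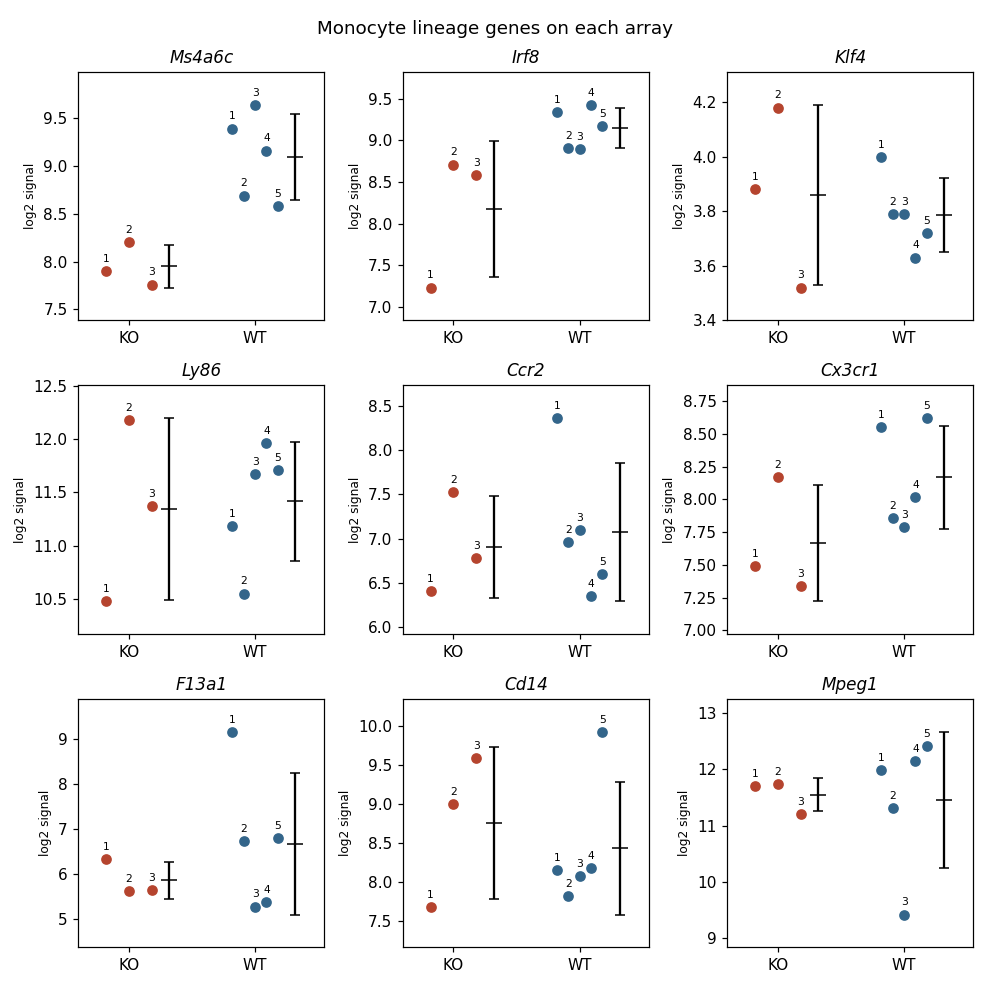
Deposited log2 signal of each of the 9 genes (vertical axes, each with its own range) on the 3 KO arrays (red) and the 5 WT arrays (blue), with the array number above each point and the group mean ± SD as a black bar. Ms4a6c and Irf8 have all KO points below all WT points, F13a1 and Ccr2 are highest on WT array 1, and Mpeg1 is lowest on WT array 3.

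Among the chemokine receptors, Ccr2, which draws Ly6C-high monocytes out of the marrow, was 6.41, 7.53 and 6.78 in KO arrays and 8.36, 6.96, 7.10, 6.35 and 6.60 in WT arrays. The groups overlapped throughout, and WT array 1 was the highest of the 8. The difference was -0.17 with a 95% interval of -1.20 to 0.87 (limma, adjusted p 0.998; exact permutation p 0.804). It was 0.16 without WT array 1 and 0.08 without KO array 1, so its direction rested on single arrays.

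Cx3cr1, the fractalkine receptor of patrolling monocytes and of early monocyte and dendritic progenitors, was 7.49, 8.17 and 7.34 in KO arrays and 8.55, 7.86, 7.79, 8.02 and 8.62 in WT arrays. KO arrays 1 and 3 were below all WT arrays, while KO array 2 lay among them. KO averaged 7.67 ± 0.45 (SD, n = 3) and WT 8.17 ± 0.39 (SD, n = 5). The difference of -0.50 had a 95% interval of -1.17 to 0.16 (limma, unadjusted p 0.122, adjusted p 0.998; exact permutation p 0.161). It stayed below 0 with any single array left out, from -0.76 to -0.34.

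Of 15 other chemokine and receptor genes of monocytes, 14 had a row and 7 were tested, with 0 passing in either direction, 2 above 0 and 5 below and a median of -0.30, which was -0.12 without WT array 3 and -0.09 without WT array 1. Over all 14 rows, dim ones included, the median was -0.09, with 8 below 0. Ccr1, a receptor for CCL3 and related chemokines, averaged 6.70 ± 0.48 (SD, n = 3) over KO arrays and 7.53 ± 0.49 (SD, n = 5) over WT arrays, a difference of -0.83 with an exact permutation p of 0.0714. Ccl3, a chemokine ligand of CCR1, differed by -1.11 and was dim. Ccl9 differed by -0.30 and Ccr7, a receptor that guides cells to lymph nodes, by -0.36. Without WT array 1 Ccl9 was at -0.09, and without KO array 2 at 0.04, and without KO array 1 at -0.58, while Ccr7 was at -0.12 without WT array 3. Cx3cl1, the ligand of CX3CR1, and Ccl2, the main ligand of CCR2, differed by 0.08 and -0.02, and by 0.23 and 0.04 without WT array 3.

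Cd14, the co-receptor that hands lipopolysaccharide to TLR4, was 7.68, 9.0 and 9.59 in KO arrays and 8.16, 7.82, 8.08, 8.18 and 9.93 in WT arrays. KO arrays 2 and 3 and WT array 5 were high and the other 5 arrays low, which cut across genotype. The difference was 0.32 with a 95% interval of -0.94 to 1.58 (limma, adjusted p 0.998; exact permutation p 0.607). Single arrays moved it between -0.10, without KO array 3, and 0.86, without KO array 1.

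Ly86 encodes MD-1, the secreted partner of the TLR4-like receptor CD180. It was 10.48, 12.18 and 11.37 in KO arrays and 11.18, 10.55, 11.67, 11.96 and 11.71 in WT arrays. The highest and the lowest value of the 8 were both in KO. The difference was -0.07 with a 95% interval of -1.05 to 0.91 (limma, adjusted p 0.998; exact permutation p 0.875), and it was 0.36 without KO array 1 and -0.49 without KO array 2.

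The partners of CD14 and MD-1 were mixed. Of 20 genes of the lipopolysaccharide and toll-like receptor list, 18 had a row, 13 were tested and 0 passed in either direction, with 8 above 0 and 5 below and a median of 0.12 that was -0.05 without WT array 3. Over all 18 rows, dim ones included, the median was -0.15, with 10 below 0. Tlr1, which pairs with TLR2, differed by 1.45 and Tlr5, the flagellin receptor, by 0.80, while the endosomal RNA receptors Tlr7 and Tlr8 differed by -0.63 and -0.70. Tlr1, Tlr5 and Tlr8 were dim, above the array median on 5, 4 and 4 of the 8 arrays. Leaving out KO array 2 brought Tlr5 to 0.36, and leaving out KO array 3 brought Tlr1 to 2.35 and Tlr5 to 1.32. Without KO array 2 Tlr8 was at -1.09. Tlr4 and Cd180, the receptors that CD14 and MD-1 serve, differed by -0.64 and -0.42. Tlr4 was at -0.34 without WT array 3, and Cd180 at -0.22 without WT array 4 and -0.70 without WT array 5.

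Mpeg1 encodes perforin-2, a pore-forming protein of phagocytes. It was 11.70, 11.74 and 11.21 in KO arrays and 11.99, 11.31, 9.42, 12.15 and 12.42 in WT arrays. WT array 3 was far below every other array of either group. The difference of 0.09 (95% interval -1.31 to 1.5, limma, adjusted p 0.998) was -0.42 without that array, with exact permutation p of 0.982 and 0.257.

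F13a1 encodes the A subunit of coagulation factor XIII, made by monocytes and macrophages and also by megakaryocytes. It was 6.34, 5.62 and 5.64 in KO arrays and 9.17, 6.74, 5.28, 5.38 and 6.81 in WT arrays. The row was dim on several arrays, whose medians over all rows were 5.26 to 5.51. F13a1 was below the array median on WT array 3, and under a stricter filter on dim rows it did not enter the test. WT array 1 was far above all others, and the remaining WT arrays lay on both sides of the KO arrays. The difference was -0.81 with a standard error of 0.80 and a 95% interval of -2.61 to 0.99 (limma, adjusted p 0.998; exact permutation p 0.482). Without WT array 1 it was -0.19, and the mean of the WT group was then 6.05 ± 0.83 (SD, n = 4), against 5.87 ± 0.41 (SD, n = 3) in KO. Platelet genes were high on the same array, with Pf4, a platelet chemokine, at 12.44 and 5.56 to 8.17 on the other WT arrays. Pf4 was next highest on WT array 3, at 8.17, where F13a1 was the lowest of the 8 arrays, at 5.28. The part of platelet transcripts in the F13a1 value was not tested.

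**Figure D2:**
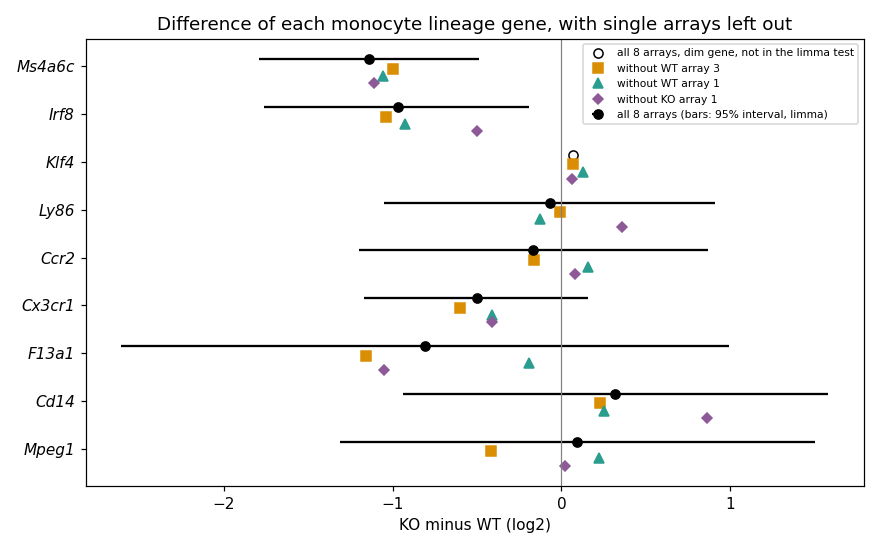
KO minus WT difference on the log2 scale for each gene (horizontal axis) with all 8 arrays (circles, with 95% intervals from limma for the 8 tested genes) and without WT array 3, WT array 1 or KO array 1. The intervals of Ms4a6c and Irf8 lie below 0, those of the other 6 tested genes span 0, and the symbols of Ly86, Ccr2 and Mpeg1 fall on both sides of 0.

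Seen by array, the members did not move as a block. Relative to the median of each gene over the 8 arrays, the median member was at -0.46, 0.23 and -0.32 on KO arrays 1 to 3 and at 0.43, -0.0034, -0.01, 0.08 and 0.26 on WT arrays 1 to 5. KO array 1 held the lowest value of 3 members (Irf8, Ly86 and Cd14), and KO array 3 that of 3 others (Ms4a6c, Klf4 and Cx3cr1). WT array 5 held the highest value of Cx3cr1, Cd14 and Mpeg1, WT array 1 that of Ccr2 and F13a1, and KO array 2 that of Klf4 and Ly86. Variation within WT also differed between members. The SD over the 5 WT arrays was larger than that of 98.3% of tested genes for F13a1 and of 94.8% for Mpeg1, while for Irf8 it was larger than that of 18%.

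**Figure D3:**
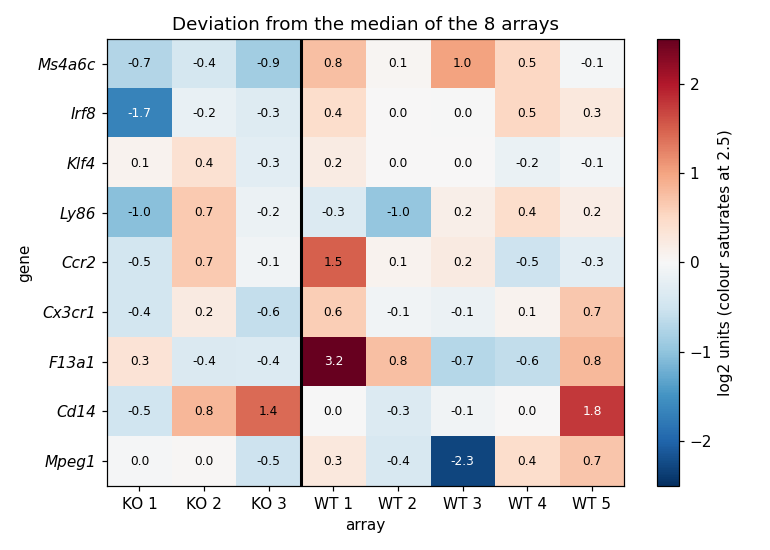
Each gene's value on each array minus that gene's median over the 8 arrays, in log2 units, with KO arrays left of the black line and WT arrays right of it. Ms4a6c and Irf8 are at or below -0.2 on all KO arrays, while F13a1 on WT array 1 and Mpeg1 on WT array 3 hold the extremes.

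The genes whose values followed each member most closely over the 8 arrays are given as a description, with Pearson's r chosen as the highest of 9912 non-member genes and the arrays shared by all. For Irf8 they were Chn2 (0.971), Slc6a12 (0.948) and H2-D1 (0.935), and for Ms4a6c Safb (0.941), Yipf2 (0.939) and Paqr3 (0.938). Ly86 ran with Mthfs (0.978), H2-DMb1 (0.973) and Akr1a1 (0.950). None of these r values fell below 0.909 without WT array 3. For Ccr2 the nearest genes were Zfp821 (0.953), Cyria (0.934) and Mrpl39 (0.932), for Cx3cr1 Panx1 (0.935), Nipsnap3b (0.935) and Grhpr (0.912), and for Cd14 Cass4 (0.963), Ostf1 (0.955) and Oas2 (0.948). F13a1 was nearest to Arhgap10 (0.967), Smoc1 (0.959) and Rnf103 (0.955), and without WT array 1 these were at 0.964, 0.797 and 0.846, and the 3 of Ccr2 at 0.890, 0.871 and 0.801. The nearest to Mpeg1 were Cdk6 (0.994), Tmem127 (0.988) and Ift52 (0.986), and to the dim Klf4 Dmac2 (0.963), Fam98a (0.954) and Spidr (0.939).

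Other monocyte and phagocyte genes were mostly near 0, with more of them below 0 than above. Of 31 listed, 27 had a row and 24 were tested, with 0 passing in either direction. Of those tested 6 were above 0 and 18 below, where 44.0% of all tested genes were below, and the median was -0.06. Over all 27 rows, dim ones included, the median was -0.09, with 21 below 0. Without WT array 1, 13 tested genes were below 0, where 43.5% of all were, and the median was -0.03. Without KO array 1, 11 were, where 43.2% of all were. Fn1, encoding fibronectin, was 4.94, 6.04 and 4.66 in KO and 7.96, 6.11, 5.98, 6.04 and 6.29 in WT, with a difference of -1.26 (exact permutation p 0.0357) that was -0.89 without WT array 1. The groups of Fn1 overlapped through KO array 2. Ifi30, a lysosomal thiol reductase gene, differed by -1.16, and by -0.43 without WT array 3. Lyz2, encoding lysozyme, differed by 0.33, and by 0.11 with KO array 3 left out and 0.51 without KO array 1, and Fcgr4, an Fc receptor gene, by 0.33. Csf1r, the macrophage colony-stimulating factor receptor and a defining gene of the lineage, ran from 9.72 to 11.02 in KO and from 9.73 to 11.78 in WT. Like Ccr2 and F13a1 it was highest on WT array 1. It differed by -0.11 with all arrays, by 0.24 without WT array 1 and by -0.50 without KO array 2, so its direction rested on single arrays.

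The transcription factors around Irf8 and Klf4 had a median of -0.02 over 13 tested of 23 listed, 20 of them with a row, with 0 passing in either direction, 6 above 0 and 7 below, or 10 below with quantile normalization. Tcf4, encoding the E protein E2-2 of plasmacytoid dendritic cells, was 12.73, 11.41 and 11.91 in KO and 13.01, 12.45, 12.60, 14.13 and 13.39 in WT. KO arrays 2 and 3 were below all WT arrays and KO array 1 was among them, with a difference of -1.10 and an exact permutation p of 0.0893. Runx1, Klf6 and Cebpe differed by -0.28, -0.15 and 0.12. Runx1 was at -0.54 without WT array 3 and -0.17 without WT array 5, Klf6 at -0.04 without WT array 3 and -0.31 without WT array 4, while Cebpe was at 0.24 without KO array 1 and 0.04 with KO array 3 left out. Spi1, encoding PU.1, the partner of IRF8, ran from 16.61 to 16.72 in KO and from 16.40 to 16.85 in WT, and differed by -0.02, or by 0.03 without WT array 3. The IRF family list holds 9 other genes, among them Irf2bp2, which is not itself an IRF gene. Of these 8 had a row, 5 were tested and 0 passed in either direction with all arrays. The tested genes, Irf2bp2 included, had 3 above 0 and 2 below and a median of 0.01, which was -0.05 with quantile normalization. Irf9, a subunit of the interferon-activated complex ISGF3, differed by -0.52, Irf1 by 0.51, Irf2 by 0.28 and the corepressor gene Irf2bp2 by -0.06. Single arrays moved Irf1 to 0.91 (without KO array 1) and to 0.22 (without KO array 2), Irf2 to 0.08 (without WT array 5), Irf9 to -0.31 (without KO array 1) and Irf2bp2 to 0.01 (without KO array 2).

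Neighbouring lineages were read the same way, and 0 of their tested genes passed. Macrophage genes had 16 rows, of which 11 were below the array median on all 8 arrays, and the 5 tested were all above 0, with a median of 0.60 that was 0.36 without WT array 3 and 0.28 without KO array 1. Over all 16 rows the median was 0.02, with 8 below 0. Vcam1, an adhesion molecule of marrow macrophages, differed by 1.52, Adgre1, encoding F4/80, by 0.60, Mrc1, the mannose receptor gene, by 0.40 and Hmox1, encoding haem oxygenase, by 0.33. Adgre1 was at 0.15 without WT array 3, Mrc1 at 0.01 without KO array 1 and Hmox1 at 0.01 without KO array 2. With KO array 3 left out they were at 0.93, 0.70 and 0.69. The list averaged 5.12 to 5.32 in KO and 4.82 to 5.20 in WT, and the complement gene C1qa was at 3.20 to 3.70 in KO and 3.29 to 3.64 in WT, below the array medians of 5.26 to 5.51. Of 14 dendritic cell genes, 13 had a row, 3 were tested, and the median was -0.11 with 1 above 0 and 2 below. Primary granule and GMP genes, 16 tested of 17, had a median of 0.03 with 10 above 0 and 6 below. Among them Cd34, which marks the GMP gate, was 5.63, 7.81 and 7.42 in KO and 9.49, 7.24, 10.94, 9.08 and 8.01 in WT. Its values overlapped, and it differed by -2.0, or -1.34 without KO array 1, the array lowest in Irf8. Nkg7 differed by -0.74, and by -0.42 without KO array 1, Kit by -0.30 and Calr by 0.56, and by 0.27 without WT array 3. Secondary granule and neutrophil genes, 15 tested of 16, had a median of -0.07 with 5 above 0 and 10 below.

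Megakaryocyte and platelet genes, 7 tested of 10, were all below 0 with a median of -0.51, which was 0.07 without WT array 1. Itga2b, a platelet integrin gene, differed by -1.15, and by -0.66 without that array, Pf4 by -1.41 and -0.22, and Treml1 by -0.51 and 0.07, while Gp9 differed by -0.36, and by -0.17 without WT array 3. Mast cell, basophil and eosinophil genes, 7 tested of 12, had a median of -0.87 with 1 above 0 and 6 below, and a median of -0.44 without WT array 3 and -0.34 without WT array 4. Over all 10 rows of that list, dim ones included, the median was -0.29, with 8 below 0. Erythroid genes, 3 tested of 9, had a median of 0.08, B cell genes, 2 of 8, of -0.44, T and NK cell genes, 3 of 10, of 0.09, and stromal and endothelial genes, 2 of 9, of 0.05. The B cell median was -0.15 without WT array 3, and the T and NK cell median 0.35. Averaged over their rows, these lists were at 4.90 to 5.12 in KO and 4.84 to 5.76 in WT for B cell genes and 4.25 to 4.27 in KO and 3.98 to 4.53 in WT for T and NK cell genes. Several list medians changed sign with 1 array left out. Without KO array 1 the other monocyte genes were at 0.03, the primary granule genes at -0.03 and the neutrophil genes at 0.08, without KO array 2 the transcription factors were at 0.0024, the chemokine genes at 0.01, the primary granule genes at -0.01 and the stromal genes at -0.03, and without KO array 3 the IRF family was at -0.07. Without WT array 2 the IRF family was at -0.03 and the T and NK cell genes at -0.12, without WT array 3 the IRF family was at -0.09, the primary granule genes at -0.02 and the dendritic cell genes at 0.02, without WT array 4 the T and NK cell genes were at -0.03, and without WT array 5 the erythroid and stromal genes were at -0.01 and -0.04. Whether any of these cell types had a part in the member values was not tested.

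**Figure D4:**
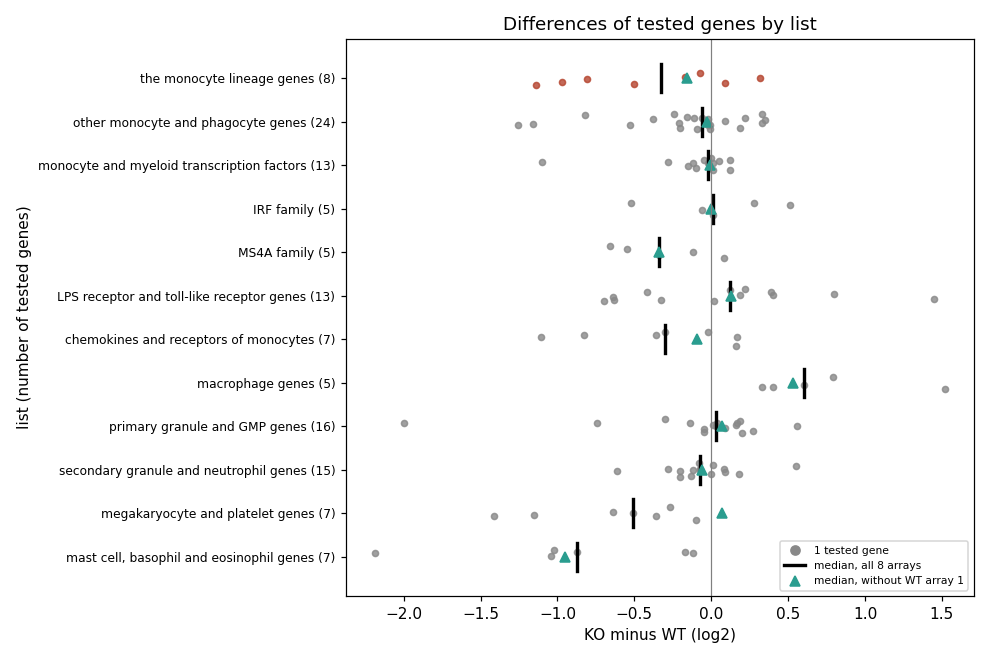
KO minus WT difference on the log2 scale (horizontal axis) of every tested gene in the lists with at least 5 tested genes, 1 row per list, with the number of tested genes in brackets. The black bar is the median with all arrays and the triangle the median without WT array 1, which leaves the platelet list at 0.07, against -0.51 with all arrays.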

How the data were processed

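Per the labels' protocols, RNA was isolated with a kit for small samples and labelled with biotin the standard Affymetrix way. The authors deposited 1 table of log2 values, with 28846 rows and 8 arrays. No software, normalization or genome build is stated for it in the sources used, and no label states the log base, which was read from the range of 1.89 to 18.6. Of 22206 transcript rows, 19572 had 1 symbol in the platform annotation, 0 had several and 2634 had none. Control rows numbered 6640. The annotation appears to be of another Affymetrix mouse array than the design text names.

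Tested rows carried 1 symbol and exceeded the array's median over all rows on at least 3 arrays, with the row of highest mean kept for each symbol, which left 9920 genes. KO was compared with WT with two-sided tests in limma 3.58.1 (R 4.3.3; lmFit, then eBayes) of the values as deposited, with Benjamini-Hochberg adjustment and a threshold of 0.05. For single genes an exact permutation test, two-sided, ran over the 56 splits. Intervals are 95% intervals from limma, and the number of arrays limits their precision. Members that miss the filter have values and the permutation test only. No pair of the 28 was a duplicate (smallest root mean square difference 0.574).

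The members and the 17 gene lists, the members among them, were chosen with earlier results of these data known. Named are all members, all MS4A genes with a row, the 3 genes nearest to each member by Pearson's r, Pik3ca, and up to 4 tested genes of smallest unadjusted p in each list, given here for the lists closest to the members and as counts and medians for the others. Fcgr3, Mpo, Csf1r, Spi1, C1qa, Cx3cl1, Ccl2, Tlr4 and Cd180 fall outside that rule and were picked with their values in view. The script was tested on simulated data. Promoter windows came from RefSeq, GRCm38.p6, for 8 of 9 members. Alternatives were the filter, quantile normalization, median centring, a floor, array weights, a robust eBayes with trend, the replicate block, the row chosen, the threshold and leaving out each array; leaving out WT arrays 1 and 3 together was added after seeing the data. Python 3.11.15 and matplotlib 3.10.9 drew the figures.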

Additional observations from a re-analysis of the deposited data

Results flagged for a closer look

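In the 5 WT arrays, 72 values (members, other named genes and list averages) were searched for an array that stood apart. The gap to its nearest neighbour had to exceed a share of 0.71 of the group's range, and 13 were found. The values share the same arrays and some genes count both alone and in a list average, so no chance rate applies to that number. Among the 9 members such a gap was found for Cd14 alone, which was 9.93 on WT array 5 and 7.82 to 8.18 on the other WT arrays. Pik3ca was 8.41 on WT array 3 and 9.48 to 9.58 on the other WT arrays.

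WT array 3 also stood apart in Runx1, at 11.52 against 12.64 or more on the other WT arrays, in Calr, at 12.18 against 13.41 to 13.86, in Ccr7, at 9.58 against 8.30 to 8.55, and in the macrophage list, which averaged 4.82 there and 5.13 to 5.20 on the other WT arrays. WT array 1 stood apart in Fn1, at 7.96 against 5.98 to 6.29, in Ccl9, at 6.69 against 5.49 to 5.76, in Treml1, at 8.45 against 5.33 to 6.02, and in the megakaryocyte and platelet list, at 9.84 against 5.90 to 6.96. On WT array 2, Irf1 was 9.28 against 7.80 to 8.22, Ccl3 was 5.03 against 6.36 to 6.77, and the list of monocyte and myeloid transcription factors averaged 8.69 against 8.62 to 8.64. The cause of these values was not tested.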

How the results depend on the processing

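Each of the 19 alternatives tried called 0 genes, of 9920 tested, or 19505 with no filter on dim rows and 7895 with a stricter one, among them the replicate block (the replicate number as a block, on the arrays numbered 1 to 3), which also called 0. The smallest adjusted p over these ranged from 0.264 to 1.0. Ms4a6c, Irf8, Cx3cr1 and F13a1 differed by less than 0 under all 18 alternatives run for them, from -1.28 to -0.86, -1.24 to -0.50, -0.76 to -0.34 and -1.22 to -0.19. Some alternatives could not change a difference, since the filter, the robust eBayes with trend and the row chosen left member values as they were. For Ms4a6c and Irf8, whose groups did not overlap, leaving out arrays could not change the sign either. The median over the members was -0.17, and -0.49 to 0.02 with single arrays left out. The other 5 members changed sign under some. Mpeg1 was at -0.34 with array weights and -0.41 without WT arrays 1 and 3, Ccr2 at 0.27 without those 2 arrays, and under the replicate block Ly86 was at 0.21 and Klf4 at -0.00118. With each array left out in turn, Klf4 ranged from -0.09 to 0.24, Ly86 from -0.49 to 0.36, Ccr2 from -0.48 to 0.16, Cd14 from -0.10 to 0.86 and Mpeg1 from -0.42 to 0.33. The causes were not tested. The numbers pair no samples by the labels, and deviations of same-numbered arrays correlated at 0.018, 0.012 and 0.145. The number of arrays limits what can be called, and Klf4 was too dim to test.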
